A study of Arabidopsis thaliana with 30 samples.

Results

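Carbonic anhydrases interconvert carbon dioxide and bicarbonate, and plants carry several unrelated families of them. The loci described here are the 2 alpha carbonic anhydrases with enough rosette reads to be tested, ACA1 and ACA2, and the 5 loci of the mitochondrial gamma family, γCA1, γCA2, γCA3, γCAL1 and γCAL2. They were taken by name from 27588 Arabidopsis thaliana loci, and the reads assigned to all annotated transcripts of a locus were summed. All 7 were among the 18999 loci with enough reads to be tested over all libraries.

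Rosette leaves gave 30 RNA-seq libraries, 3 for each of 5 genotypes under each of 2 treatments. The triple line (oePsbS_CA1_CA2) and the double line (oePsbS_CA1) carried extra β-carbonic anhydrase genes in the PsbS-overexpressing background oePsbS, the npq4-1 mutant lacks PsbS, and Col-0 was the wild type. From an age of 2 weeks, every 2 days, plants received 10 ml of 3 mM sodium bicarbonate at a neutral pH or the same volume of water, with 16 h of light per day at 120 µE and 21 °C. The double line expresses βCA1 from the 35S promoter, and the triple line expresses βCA1 and βCA2 from a construct with the ROLD and 35S promoters. Both also carry the overexpression of PsbS, a thylakoid protein needed for energy dissipation as heat. The paper reports PsbS protein in both lines as well below that of oePsbS and near that of Col-0. Whether a library was 1 plant, a pool of plants or 1 of several transgenic lines is not given in the sources used here, so p-values measure only the spread between these libraries.

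Alpha carbonic anhydrases are secreted-type enzymes, and Arabidopsis ACA1 is known as a glycosylated protein that reaches the chloroplast through the secretory pathway. Gamma carbonic anhydrases descend from bacterial enzymes and are built into respiratory complex I of plant mitochondria, the NADH dehydrogenase of the inner membrane, where trimers of γCA and γCAL proteins form a domain on the matrix side that is needed to assemble the complex. Proposed roles of that domain include the handling of carbon dioxide released by photorespiration, the salvage pathway in which mitochondria decarboxylate glycine. γCA1, γCA2 and γCA3 keep the residues of an active carbonic anhydrase, whereas γCAL1 and γCAL2 are carbonic anhydrase-like proteins that lack some of them.

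The 7 loci lie on chromosomes 1, 2, 3 and 5. In the TAIR10.1 assembly, ACA1 (AT3G52720) occupies chr3:19538540-19542286 on the minus strand and ACA2 (AT2G28210) chr2:12029666-12033096 on the plus strand. γCA1 (AT1G19580) is at chr1:6774683-6777568 on the plus strand, γCA2 (AT1G47260) at chr1:17319551-17323484 on the minus strand and γCA3 (AT5G66510) at chr5:26549698-26551636 on the minus strand. γCAL1 (AT5G63510) is at chr5:25423967-25425871 and γCAL2 (AT3G48680) at chr3:18034935-18037041, both on the plus strand. All 14 annotated transcripts of these loci had the same spliced length in the deposited files and in the RefSeq annotation.

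Gene families can share reads, so the transcripts were compared with each other. No stretch of 31 bases was common to any of the 21 pairs of loci. The longest identical runs between the leading transcripts measured 29 bases and lay in coding sequence, and they are shown because they mark how close the family members come to exchanging reads. The run of γCA1 and γCA3 crosses the junction after exon 3 of 5 in both genes and spans chr1:6776134-6776264 and chr5:26550477-26550593. The run of γCAL1 and γCAL2 lies within exon 2 of 2 in both genes, at chr5:25425424-25425452 and chr3:18036585-18036613.
γCA1 and γCA3: accattggtcatagtgctgttttacatgg
γCAL1 and γCAL2: ggtgaactatggggaggcaatccagcaag

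No 31-base word of a member occurred on the same strand in a transcript of another locus. On the opposite strand, 27.3% of the 2777 words of γCA2 lay in transcripts of its neighbour AT1G47250 (PAF2, a proteasome subunit), which had 18.81 to 24.33 TPM over the 30 libraries, and 9.15% of the 2982 words of ACA1 lay in the long noncoding RNA AT3G08280. The library kit marked strand, but the strand setting used for counting is not given in the sources used here.

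The gamma loci did not all vary together, and the 250 bases before each annotated start were searched on both strands for site II (TGGGCC or TGGGCT), a motif known from promoters of plant genes for mitochondrial proteins. Site II occurred in 19.2% of 27443 such windows of nuclear protein-coding genes, in 56.4% of those of 39 other nuclear complex I subunits, in 2 of 5 gamma loci and in 0 of 2 alpha loci. γCAL1 held 2 copies, 38 and 17 bases before its start. γCA1 held 1 copy 166 bases before its start, inside the neighbouring gene AT1G19570, and γCA2, γCA3 and γCAL2 held none. The window of ACA1 overlaps AT3G08280, which leaves 0 bases before its start free of other genes. AT3G52720.4, the ACA1 transcript with the largest share, begins at chr3:19541284, inside the locus. The bases before that position were not searched. The telo box (AAACCCTA) occurred in 4.49% of all windows, in 7.69% of those of the other complex I subunits and in none of the 7 loci. The 86 bases before the start of γCAL1 that belong to no other gene are shown with the same length from γCAL2, its closest relative, and from γCA2, with site II in capitals. They span chr5:25423881-25423966 and chr3:18034849-18034934 on the plus strand and chr1:17323485-17323570 on the minus strand (RefSeq, TAIR10.1).
γCAL1: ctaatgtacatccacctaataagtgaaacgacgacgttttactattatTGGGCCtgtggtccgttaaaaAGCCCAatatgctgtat
γCAL2: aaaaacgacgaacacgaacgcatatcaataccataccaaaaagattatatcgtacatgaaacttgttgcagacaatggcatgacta
γCA2: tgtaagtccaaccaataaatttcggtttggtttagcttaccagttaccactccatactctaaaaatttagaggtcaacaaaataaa

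Between 15346368 and 18326430 reads were assigned per library. The altered genes were checked first. In counts-per-million units (CPM), PsbS ranged over 4307 to 5592 in the triple line, 3324 to 4083 in the double line, 3830 to 5235 in oePsbS, 0.12 to 6.28 in npq4-1 and 1366 to 1895 in Col-0. The library labelled replicate 3 of the double line with bicarbonate had 2409 CPM of βCA1, against 12950 and 14750 CPM in the other libraries of its group and 2941 to 4288 CPM in Col-0 with bicarbonate. For the 7 loci, the values that passed in comparisons with that group are therefore also given without this library. With water the double line had 10940 to 16800 CPM of βCA1. The triple line had 3611 to 4071 CPM of βCA1 and 1604 to 1883 CPM of βCA2 with water, above the 2418 to 2564 and 1207 to 1239 CPM of oePsbS. With bicarbonate it had 3342 to 3895 CPM of βCA1 and 1813 to 1919 CPM of βCA2, not above the 3627 to 4188 and 1769 to 1955 CPM of oePsbS. Rosette leaf markers were abundant in every library. The 8 root markers summed to 0.07089 to 1.164 TPM, with PLT1, PLT2 and RHD6 at 0 in all 30 libraries and NRT2.1 above 0 in all of them. Transcripts per library cannot tell fewer cells of a type from less RNA per cell.

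Levels were compared between loci in transcripts-per-million units (TPM), which are scaled by transcript length. γCA3 averaged 60.1 ± 4.67 TPM, γCA2 59.5 ± 3.71, ACA1 56.6 ± 9.90, γCAL1 53.9 ± 3.53, γCAL2 38.9 ± 4.18, γCA1 25.1 ± 1.60 and ACA2 8.67 ± 1.77 TPM (SD, n = 30 libraries). The first 4 could not be ordered, since within a library γCA3 was above γCA2 in 14 of 30 libraries, γCA2 above ACA1 in 20 and ACA1 above γCAL1 in 17. Below them the order was fixed: γCAL1 exceeded γCAL2, γCAL2 exceeded γCA1 and γCA1 exceeded ACA2 in 30 of 30 libraries. Between the lowest and the highest library, ACA1 varied 2.30-fold, ACA2 2.22-fold, γCAL2 1.66-fold and the other 4 gamma loci 1.22-fold to 1.30-fold in TPM. The spread of ACA2 rests on 50 to 124 reads per library.

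The gamma loci were low among complex I genes per length of transcript. The 39 other nuclear subunits averaged 38.28 to 237.5 TPM with a median of 102.7 TPM, and 0 of them lay below γCA1, 1 below γCAL2, 3 below γCAL1 and 6 below γCA2 or γCA3. Of the alpha loci outside the set, ACA7 reached at most 1.065 TPM and ACA3 0.4307 TPM in any library, ACA4 and ACA5 stayed at or below 0.2545 TPM, and ACA6 and ACA8 were at 0 in all 30. None of these 6 had enough reads to be tested.

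**Figure D1:**
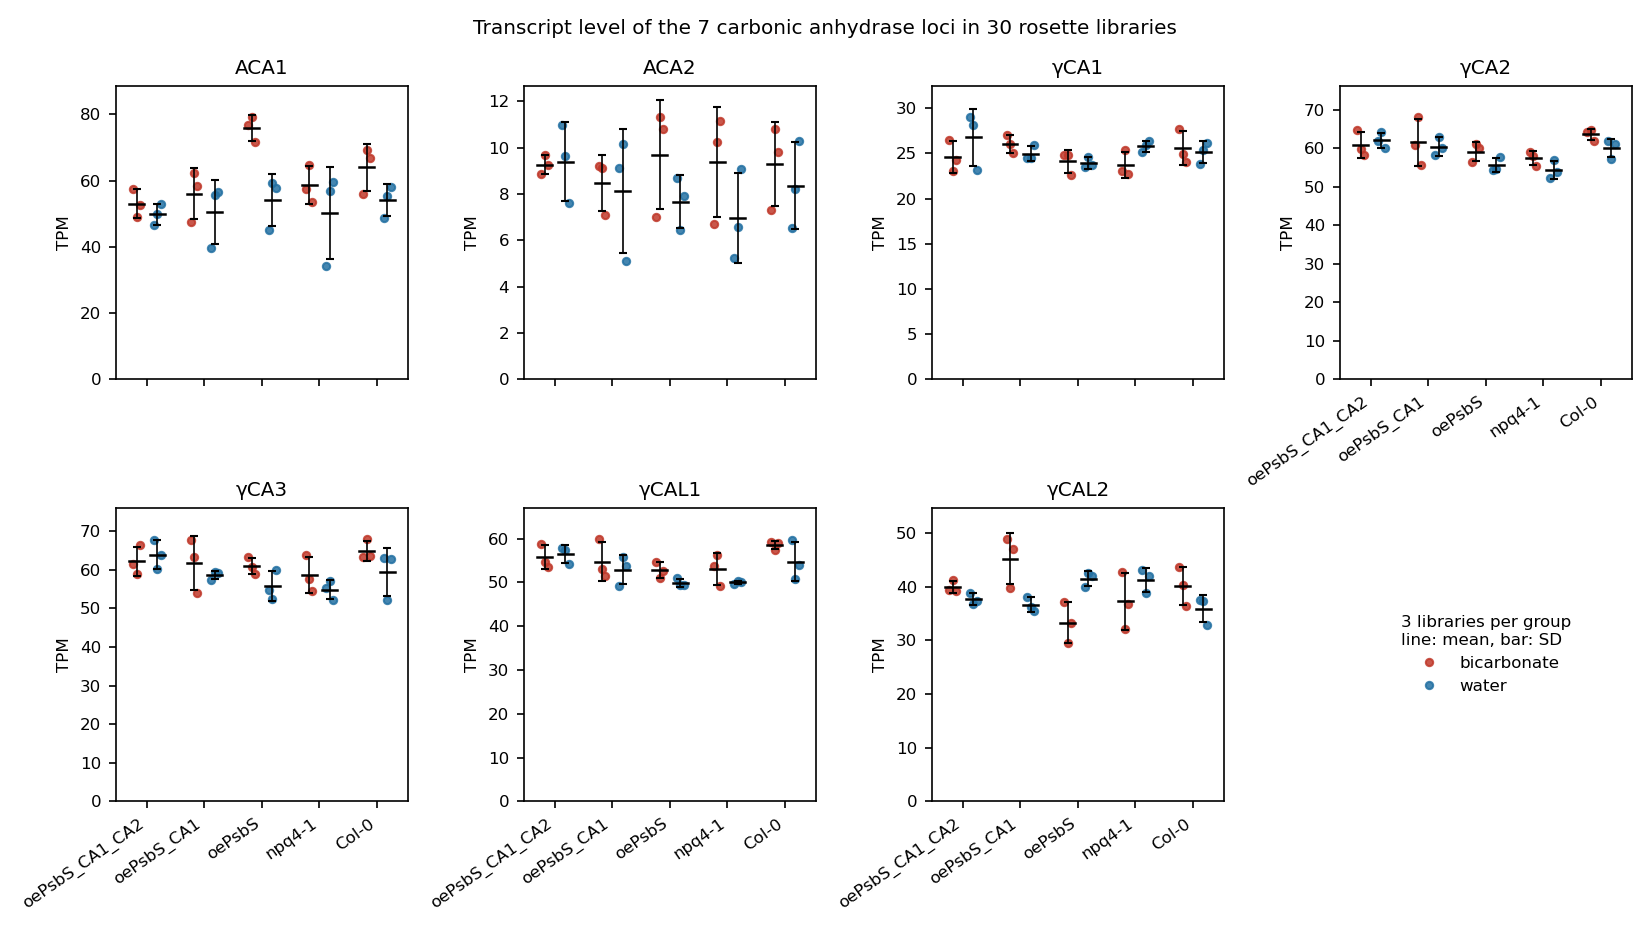
TPM (vertical axis, from 0) of each of the 7 loci in every library, by genotype (horizontal axis) and treatment (red, bicarbonate and blue, water), with lines for the mean and bars for the SD of 3 libraries. ACA1 with bicarbonate in oePsbS stands highest among its 10 groups at 75.8 TPM. The gamma loci other than γCAL2 stay within a narrow band, and γCAL2 varies 1.66-fold between libraries.

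ACA1 had 53.0 ± 4.37 TPM in the triple line, 56.1 ± 7.73 in the double line, 75.8 ± 3.87 in oePsbS, 58.6 ± 5.74 in npq4-1 and 64.0 ± 7.17 in Col-0 with bicarbonate (SD, n = 3 each, here and below). With water the values were 49.8 ± 3.12, 50.5 ± 9.54, 54.1 ± 7.86, 50.3 ± 13.9 and 54.1 ± 4.87 TPM in the same order of genotypes. The 5 water groups lay within each other's spread, and oePsbS with bicarbonate was the group that stood apart. ACA2 had 9.26 ± 0.407, 8.48 ± 1.21, 9.71 ± 2.34, 9.38 ± 2.36 and 9.30 ± 1.81 TPM with bicarbonate and 9.40 ± 1.70, 8.12 ± 2.67, 7.68 ± 1.13, 6.96 ± 1.95 and 8.36 ± 1.88 TPM with water in the triple line, the double line, oePsbS, npq4-1 and Col-0. Its highest and lowest group means, oePsbS with bicarbonate (7.02 to 11.31 TPM) and npq4-1 with water (5.232 to 9.076 TPM), came from libraries that overlapped.

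Among the active-site gamma proteins, γCA1 had 24.6 ± 1.74, 26.1 ± 0.955, 24.1 ± 1.28, 23.7 ± 1.40 and 25.6 ± 1.89 TPM with bicarbonate and 26.8 ± 3.12, 25.0 ± 0.814, 23.9 ± 0.629, 25.8 ± 0.629 and 25.1 ± 1.21 TPM with water, again from the triple line to Col-0. γCA2 had 60.9 ± 3.37, 61.5 ± 6.13, 59.0 ± 2.45, 57.4 ± 1.90 and 63.5 ± 1.44 TPM with bicarbonate and 62.0 ± 1.98, 60.4 ± 2.44, 55.6 ± 1.84, 54.4 ± 2.40 and 60.0 ± 2.42 TPM with water. γCA3 had 62.2 ± 3.78, 61.7 ± 6.97, 61.0 ± 2.18, 58.7 ± 4.67 and 64.9 ± 2.59 TPM with bicarbonate and 64.0 ± 3.85, 58.7 ± 1.09, 55.8 ± 3.88, 54.9 ± 2.47 and 59.4 ± 6.21 TPM with water. For γCA2 and γCA3, npq4-1 and oePsbS with water had the lowest group means in TPM and in CPM. The highest mean was that of Col-0 with bicarbonate in TPM and that of the triple line with water in CPM, and the libraries of these groups overlapped.

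Of the carbonic anhydrase-like proteins, γCAL1 had 55.7 ± 2.75, 54.8 ± 4.44, 52.8 ± 1.84, 53.1 ± 3.56 and 58.6 ± 0.959 TPM with bicarbonate and 56.5 ± 2.01, 53.0 ± 3.29, 49.9 ± 0.933, 50.0 ± 0.380 and 54.8 ± 4.46 TPM with water, in the order used above. γCAL2 had 40.0 ± 1.06, 45.2 ± 4.78, 33.3 ± 3.88, 37.3 ± 5.33 and 40.1 ± 3.58 TPM with bicarbonate and 37.7 ± 1.1, 36.7 ± 1.36, 41.5 ± 1.34, 41.3 ± 2.24 and 35.9 ± 2.55 TPM with water. The order of the groups was not shared by this pair: oePsbS and npq4-1 with water were the lowest groups for γCAL1 and, among the water groups, the highest for γCAL2.

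ACA1 was the locus with several transcripts in use. AT3G52720.4 carried a mean 71.0% of its TPM (63.16% to 83.02% over 30 libraries), AT3G52720.2 14.8%, AT3G52720.1 8.19% and AT3G52720.3 6.05%. The group means of the leading transcript ran between 67.65% in the double line with water and 75.97% in oePsbS with water. In oePsbS, where the level of ACA1 changed, the leading transcript held 70.4% ± 3.10 with bicarbonate and 76.0% ± 9.02 with water, and the ranges of 66.86% to 72.38% and 65.81% to 83.02% overlapped. The leading transcript of each other locus held between 94.6% and 100% on average.

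**Figure D2:**
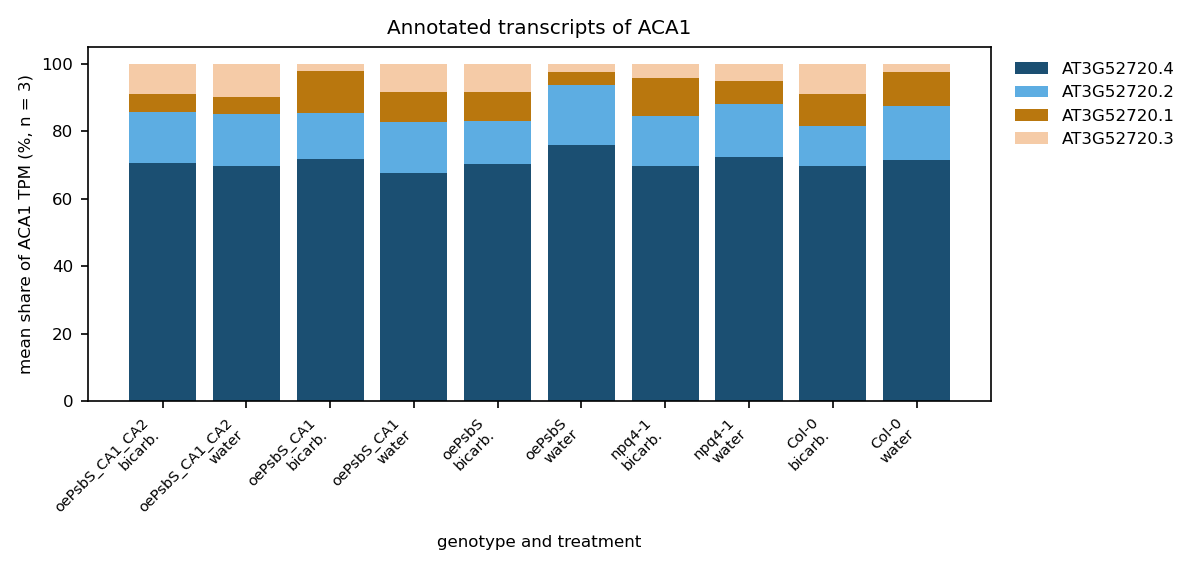
Mean share of ACA1 TPM (vertical axis, percent, n = 3 libraries per bar) held by each of its 4 annotated transcripts in the 10 groups of genotype and treatment (horizontal axis). AT3G52720.4 holds the major share in every group, 67.65% to 75.97%.

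Differences between groups were tested on read counts with edgeR's quasi-likelihood test and are given as log2 fold changes with their standard error (SE), and p-values were adjusted by Benjamini-Hochberg over all loci tested. A locus is said to pass at an adjusted p under 0.05. Bicarbonate was compared with water within each genotype, lines were compared under the same treatment, and 2 contrasts asked whether bicarbonate acted differently in the double or triple line than in oePsbS. Over 20 comparisons the 7 loci gave 140 values, of which 10 (7.14%) passed and 35 had an unadjusted p under 0.05. Of the 375940 values of all loci in these comparisons 5.99% passed, so the share of the 7 loci was close to the background. No difference was large: the widest was 0.61 on the log2 scale, so none reached 2-fold. DESeq2, the other count model run, also passed 10.

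**Figure D3:**
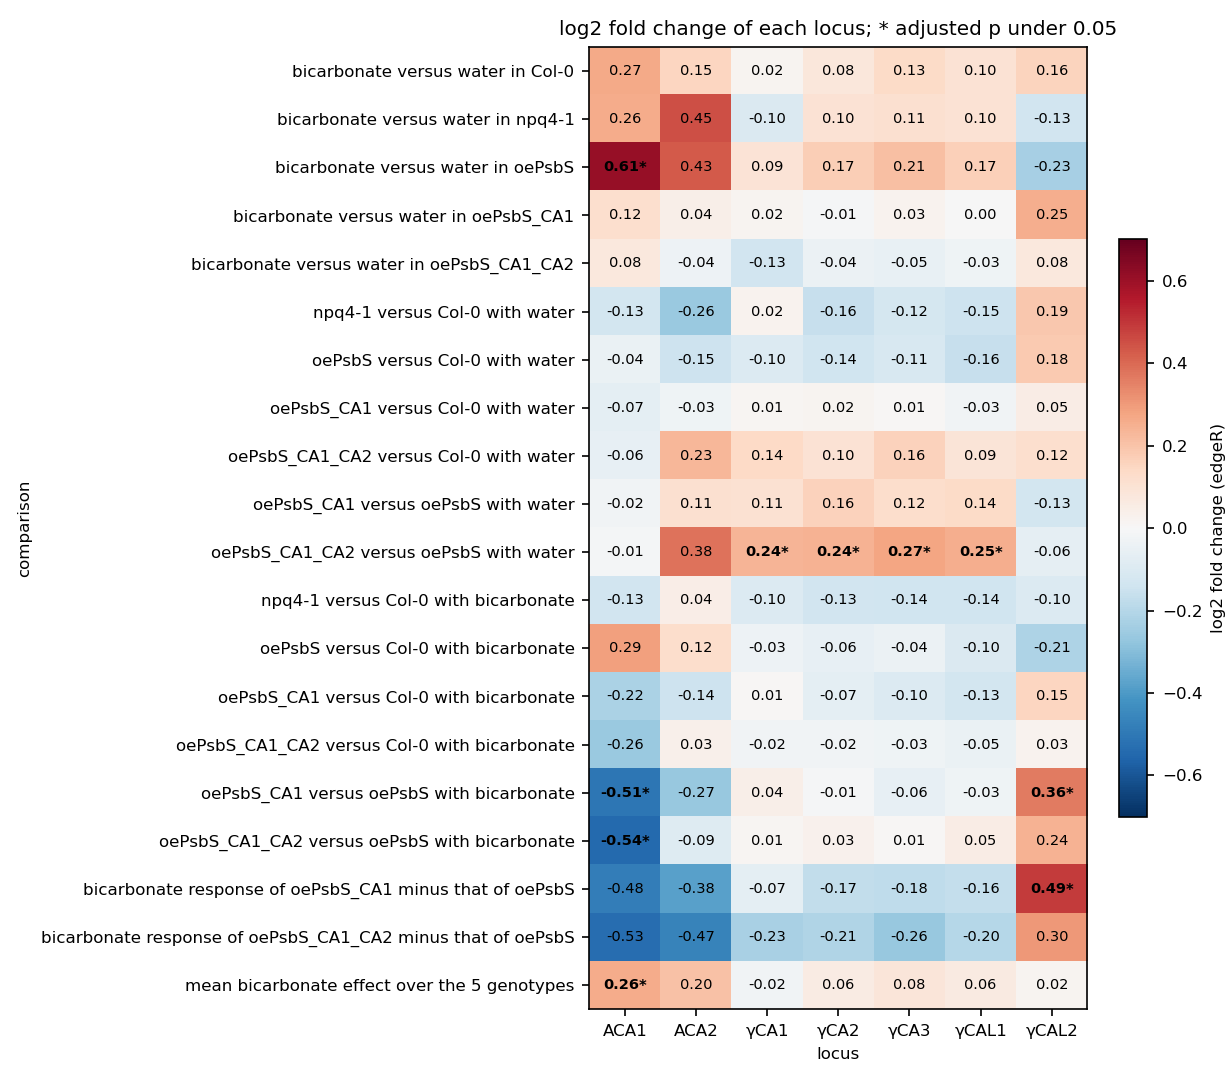
Heat map of the log2 fold change of each locus (columns) in each of 20 comparisons (rows), with red for higher, blue for lower and an asterisk for an adjusted p under 0.05 (edgeR). The 10 asterisks fall in 6 comparisons, and the widest value is 0.61 for ACA1 in oePsbS.

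ACA1 transcript rose with bicarbonate in the PsbS overexpressor. The libraries had 58.45, 60.53 and 57.19 CPM with bicarbonate, against 32.65, 42.97 and 40.64 CPM with water. The groups did not overlap, and the lowest bicarbonate library lay well above the highest water library. The difference was 0.61 (SE 0.10, adjusted p = 0.0035 by edgeR) and passed under all 13 alternatives, with values of 0.49 to 0.68. It was the 1 locus of 7 that passed in this comparison, where 15.4% of 18132 loci did. The summed level of 6 rosette leaf markers moved with it, at 50450 to 52840 TPM with bicarbonate and 46900 to 47370 TPM with water in oePsbS, with 2 of 6 passing as higher. Of 7 tested floral markers 2 passed as lower and all 7 values were negative (median -0.79), with sums over 8 markers of 10.05 to 13.86 TPM with bicarbonate and 12.94 to 31.24 TPM with water. The part of either list in the result was not tested.

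In the other genotypes ACA1 pointed the same way without passing. The values for bicarbonate over water were 0.08 (SE 0.08) in the triple line, 0.12 (SE 0.14) in the double line, 0.26 (SE 0.15) in npq4-1 and 0.27 (SE 0.12) in Col-0. With water, the library labelled replicate 1 was the lowest of its group in all 5 genotypes, at 36.55, 30.39, 32.65, 26.33 and 35.69 CPM from the triple line to Col-0. Averaged over the 5 genotypes, ACA1 rose by 0.26 with bicarbonate (SE 0.07, adjusted p = 0.0075 by edgeR), where 15.8% of 18999 loci passed, and it passed under all 36 alternatives. Without the double-line library of low βCA1 the mean difference was 0.25 (adjusted p = 0.0142 by edgeR). In that mean 3 of 7 floral and 1 of 6 leaf markers also passed as higher, and their part was not tested. Since oePsbS enters it, the mean shares those 6 libraries with the comparison above.

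With bicarbonate, ACA1 was lower in both β-carbonic anhydrase lines than in oePsbS. The triple line had 41.90, 37.34 and 41.57 CPM and the double line 33.60, 45.45 and 44.99 CPM, against the 57.19 to 60.53 CPM of oePsbS. Neither line overlapped oePsbS. ACA1 fell by 0.54 in the triple line (log2 fold change -0.54, SE 0.15, adjusted p = 0.0207 by edgeR), where 8.50% of 18999 loci passed, and by 0.51 in the double line (log2 fold change -0.51, SE 0.15, adjusted p = 0.0177 by edgeR), where 19.5% passed. Both comparisons use the same oePsbS libraries. Without the double-line library of low βCA1 the double-line comparison gave -0.58 (adjusted p = 0.0229 by edgeR). The leaf markers summed to 46710 to 48780 TPM in the triple line, 43370 to 46420 TPM in the double line and 50450 to 52840 TPM in oePsbS with bicarbonate, and their part in these differences was not tested.

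These differences depended on single libraries. Leaving out oePsbS replicate 2 gave -0.52 for the triple line and -0.48 for the double line (adjusted p = 0.0829 and 0.0653 by edgeR). Leaving out replicate 2 of the triple line gave -0.49 (adjusted p = 0.0970 by edgeR), and leaving out replicate 1 of the double line gave -0.38 (adjusted p = 0.105 by edgeR). Against Col-0 with bicarbonate, ACA1 did not pass in any line, with values of -0.26 (SE 0.15) in the triple line, -0.22 (SE 0.15) in the double line and 0.29 (SE 0.15) in oePsbS.

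With water ACA1 showed no such gap, and the triple and double lines differed from oePsbS by -0.01 (SE 0.15) and -0.02 (SE 0.15). The response of ACA1 to bicarbonate was -0.53 (SE 0.21, adjusted p = 0.0923 by edgeR) in the triple line and -0.48 (SE 0.21, adjusted p = 0.158 by edgeR) in the double line relative to that of oePsbS, or -0.56 (adjusted p = 0.137 by edgeR) in the double line without the library of low βCA1, so a different response was not shown. In the first contrast 13.1% of 18999 loci passed and in the second 8.06%, and ACA1 passed in 2 and 1 of 19 alternatives.

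ACA2, the sparse alpha locus, passed in no comparison. Its libraries had 4.356, 6.971 and 7.111 CPM with bicarbonate and 5.346, 3.819 and 4.645 CPM with water in oePsbS, and the groups overlapped (0.43, SE 0.22). In npq4-1 they had 3.948, 6.301 and 7.259 CPM with bicarbonate and 3.275, 3.960 and 5.430 CPM with water (0.45, SE 0.26). For bicarbonate over water, its values were -0.04 (SE 0.16) in the triple line, 0.04 (SE 0.24) in the double line and 0.15 (SE 0.22) in Col-0.

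With water, 4 of the 5 gamma loci had more transcript in the triple line than in oePsbS. γCA1 had 32.54, 31.42 and 26.43 CPM in the triple line against 25.76, 26.18 and 24.70 CPM in oePsbS (0.24, SE 0.07, adjusted p = 0.0246 by edgeR). γCA2 had 105.8, 109.0 and 106.5 CPM against 91.20, 88.68 and 91.63 CPM (0.24, SE 0.06, adjusted p = 0.0059 by edgeR). Both sets of libraries were apart, widely for γCA2 and by a small margin for γCA1. γCA3 had 65.72, 57.87 and 62.24 CPM in the triple line against 51.91, 47.88 and 53.84 CPM in oePsbS (0.27, SE 0.08, adjusted p = 0.0235 by edgeR). γCAL1 had 49.48, 49.36 and 46.92 CPM against 42.89, 40.00 and 39.48 CPM (0.25, SE 0.07, adjusted p = 0.0114 by edgeR). Every triple-line library of these 4 loci lay above every oePsbS library. The share of all loci set apart in this way is not given here, so the separation is only a description.

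γCAL2 did not join them. It had 37.32, 35.25 and 36.11 CPM in the triple line and 37.61, 38.49 and 37.48 CPM in oePsbS with water, with all 3 triple-line libraries below the lowest of oePsbS by a small margin (-0.06, SE 0.09, adjusted p = 0.718 by edgeR). Of the 7 loci, 4 passed, where 13.7% of 18999 loci passed in either direction and 7.76% as higher. The median of the 7 was 0.24, against -0.006 over all loci tested.

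The 4 differences were small and not equally firm. γCA2 passed in 12 of 13 alternatives, γCAL1 in 11 and γCA1 and γCA3 in 8 each. Leaving out oePsbS replicate 3 gave 0.22 for γCA1 and 0.24 for γCAL1 (adjusted p = 0.102 and 0.0584 by edgeR), and leaving out oePsbS replicate 2 gave 0.24 for γCA3 (adjusted p = 0.111 by edgeR). Without replicate 1 of the triple line, γCA1 was at 0.18 (adjusted p = 0.120 by edgeR) and γCA3 at 0.23 (adjusted p = 0.0879 by edgeR), without replicate 2 γCA1 was at 0.21 (adjusted p = 0.109 by edgeR), and without replicate 3 γCA3 was at 0.27 (adjusted p = 0.0652 by edgeR). On log2(TPM + 1) with limma, which shifts the median of all loci by -0.07, γCA1, γCA2, γCA3 and γCAL1 were at 0.15, 0.16, 0.19 and 0.17 and none of them passed (adjusted p = 0.193, 0.0926, 0.113 and 0.0762 by limma).

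Other subunits of complex I moved in the same comparison. Of 39 nuclear subunits outside the gamma family, 18 passed as higher and 0 as lower in the triple line over oePsbS with water. Of all loci tested, 7.76% passed as higher. All 39 subunit values were positive (35 by limma on log2(TPM + 1)), with a median of 0.24, against -0.006 over all loci tested. The lowest adjusted p-values belonged to PSST (0.39, SE 0.06, adjusted p = 0.000278 by edgeR), an iron-sulfur subunit near the ubiquinone site, P2 (0.48, SE 0.09, adjusted p = 0.00069 by edgeR), a subunit known from plants, ASHI (0.43, SE 0.10, adjusted p = 0.0042 by edgeR) and B18 (0.32, SE 0.07, adjusted p = 0.0048 by edgeR). The flavin and iron-sulfur subunits of the NADH-oxidising arm, named after their values were seen, passed as well, with 0.22 for the 51 kDa, 0.21 for the 75 kDa and 0.24 for the 24 kDa subunit. DESeq2 passed 21 and limma 7 of the 39, and fitting only the libraries compared left 8. With single libraries left out, 8 to 15 passed, with 8 without oePsbS replicate 3 (median 0.20) and 10 without replicate 1 of the triple line (median 0.20). Of 3 complex I assembly factors, 0 passed here by edgeR or DESeq2 and 2 had an unadjusted p under 0.05 by edgeR (median 0.05).

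Floral transcripts differed between the same libraries. The summed level of 8 floral markers was 6.756 to 8.116 TPM in the triple line and 12.94 to 31.24 TPM in oePsbS with water, with 6 to 8 of the markers detected in each triple-line library and all 8 in oePsbS. Rosette leaf markers summed to 47120 to 49790 TPM in the triple line and 46900 to 47370 TPM in oePsbS, and guard cell markers to 38.61 to 47.31 TPM and 43.01 to 55.15 TPM. Their part in the gamma and complex I differences was not tested.

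**Figure D4:**
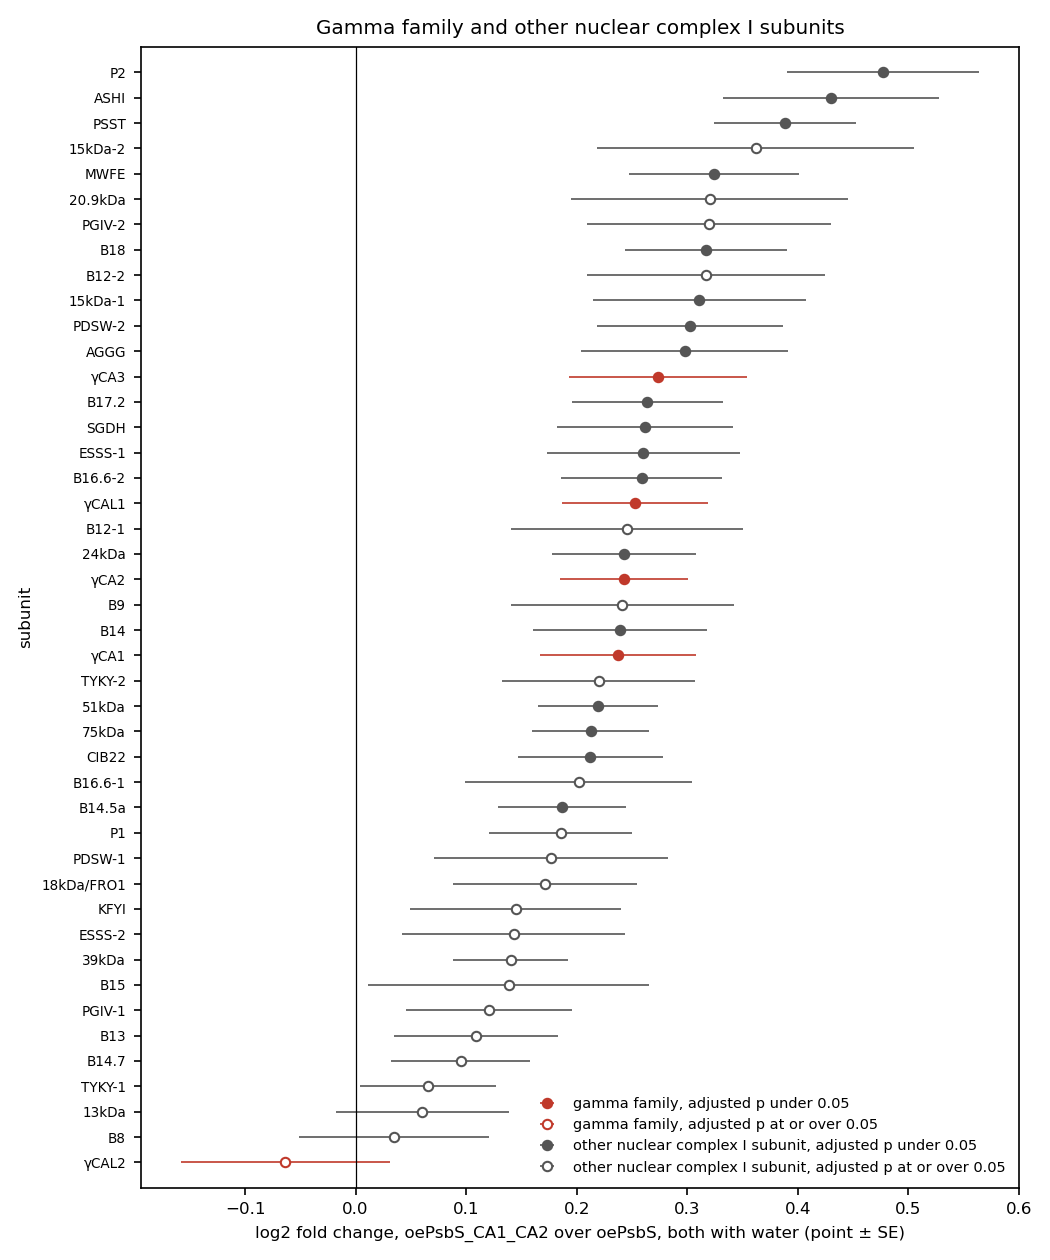
Log2 fold change with SE (horizontal axis) of 39 nuclear complex I subunits (grey) and 5 gamma loci (red), one per row, in the triple line over oePsbS with water, filled where the adjusted p was under 0.05 (edgeR). Of these points, γCAL2 alone lies below 0, at -0.06, whereas by limma on log2(TPM + 1) 35 of the 39 other subunits were above 0.

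The position of oePsbS with water mattered to these values. Against Col-0 with water, the gamma loci of the triple line were all higher without passing, by 0.09 to 0.16, and 38 of 39 complex I subunits were positive (median 0.13), of which 0 passed by edgeR or DESeq2 and 12 had an unadjusted p under 0.05 by edgeR. Those of oePsbS lay lower except γCAL2, at -0.16 to -0.10 for γCA1, γCA2, γCA3 and γCAL1 and at 0.18 for γCAL2, and 1 complex I subunit passed (PSST, -0.23). The double line had gamma values of -0.13 for γCAL2 and 0.11 to 0.16 for the other 4 over oePsbS with water, none of which passed. There 3 of 39 complex I subunits passed as higher (ESSS-1 0.37, PSST 0.26 and P2 0.31), where 5.75% of all loci passed in either direction. These comparisons share the oePsbS or the Col-0 libraries.

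With bicarbonate the gap between the triple line and oePsbS was not seen for these loci. γCA1, γCA2, γCA3 and γCAL1 were at 0.01, 0.03, 0.01 and 0.05 in the triple line over oePsbS (SE 0.06 to 0.08), and 0 of 39 complex I subunits passed by edgeR or DESeq2, with 2 at an unadjusted p under 0.05 by edgeR. Still, 34 of the 39 subunits were positive, with a median of 0.07. Set against the bicarbonate response of oePsbS, that of the triple line was lower by 0.20 to 0.26 for these 4 loci, each with an unadjusted p under 0.05 and none passing (adjusted p = 0.0851 for γCA2 to 0.157 for γCAL1 by edgeR). γCA1 passed without replicate 3 of the triple line with water (-0.31, adjusted p = 0.0400 by edgeR) and γCA2 without replicate 1 of oePsbS with bicarbonate (-0.25, adjusted p = 0.0475 by edgeR).

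γCAL2 followed a course of its own. With bicarbonate its libraries had 43.98, 36.10 and 43.65 CPM in the double line, against 35.24, 28.24 and 32.78 CPM in oePsbS. The groups did not overlap, although the lowest double-line library exceeded the highest of oePsbS by under 1 CPM. Of 18999 loci, 19.5% passed in this comparison. The difference was 0.36 (SE 0.09, adjusted p = 0.0096 by edgeR), and 0.32 (adjusted p = 0.0454 by edgeR) without the library of low βCA1. It was lost without replicate 1 of the double line (0.31, adjusted p = 0.0571 by edgeR) and without replicate 2 of oePsbS (0.28, adjusted p = 0.0807 by edgeR). In the triple line γCAL2 had 36.97, 38.51 and 38.20 CPM with bicarbonate, all above oePsbS, and the difference of 0.24 did not pass (SE 0.10, adjusted p = 0.118 by edgeR).

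Bicarbonate over water gave γCAL2 values of opposite sign in the double line and in oePsbS. In the double line it had 43.98, 36.10 and 43.65 CPM with bicarbonate and 36.89, 33.75 and 33.35 CPM with water (0.25, SE 0.09, adjusted p = 0.243 by edgeR), and without the library of low βCA1 the value was 0.21 (adjusted p = 0.440 by edgeR). In oePsbS it had 35.24, 28.24 and 32.78 CPM with bicarbonate and 37.61, 38.49 and 37.48 CPM with water (-0.23, SE 0.09, adjusted p = 0.106 by edgeR). Neither response passed, except that of oePsbS without its bicarbonate replicate 1 (-0.32, adjusted p = 0.0457 by edgeR). The difference between the 2 responses was 0.49 (SE 0.13, adjusted p = 0.0255 by edgeR), and the matching difference for the triple line was 0.30 (SE 0.13, adjusted p = 0.132 by edgeR). In the double-line contrast 8.06% of 18999 loci passed. There all 7 tested floral markers were positive (median 2.19) and 2 of 6 leaf markers passed as lower, and their part was not tested.

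That difference of 0.49 passed in 12 of 19 alternatives, with values of 0.41 to 0.61. It did not pass without the library of low βCA1 (0.43, adjusted p = 0.0709 by edgeR). It was also lost without replicate 1 of the double line with bicarbonate (0.43, adjusted p = 0.0753 by edgeR), without replicate 2 or 3 of the double line with water (both 0.46, adjusted p = 0.0650 and 0.0591 by edgeR), without replicate 2 of oePsbS with bicarbonate (0.41, adjusted p = 0.0867 by edgeR) and without replicate 2 or 3 of oePsbS with water (0.46 and 0.49, adjusted p = 0.0642 and 0.0573 by edgeR).

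The ratio of γCAL2 to γCAL1 TPM put both loci of 1 library against each other. With bicarbonate it was 0.719 ± 0.043 in the triple line, 0.827 ± 0.082 in the double line, 0.630 ± 0.052 in oePsbS, 0.706 ± 0.117 in npq4-1 and 0.685 ± 0.062 in Col-0. With water it was 0.668 ± 0.025 in the triple line, 0.695 ± 0.068 in the double line, 0.832 ± 0.042 in oePsbS, 0.826 ± 0.051 in npq4-1 and 0.658 ± 0.066 in Col-0. The ratios of oePsbS, 0.577 to 0.680 with bicarbonate and 0.784 to 0.862 with water, did not overlap. Those of the double line, 0.750 to 0.914 with bicarbonate and 0.652 to 0.774 with water, did, and the 0.914 belongs to the library of low βCA1.

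**Figure D5:**
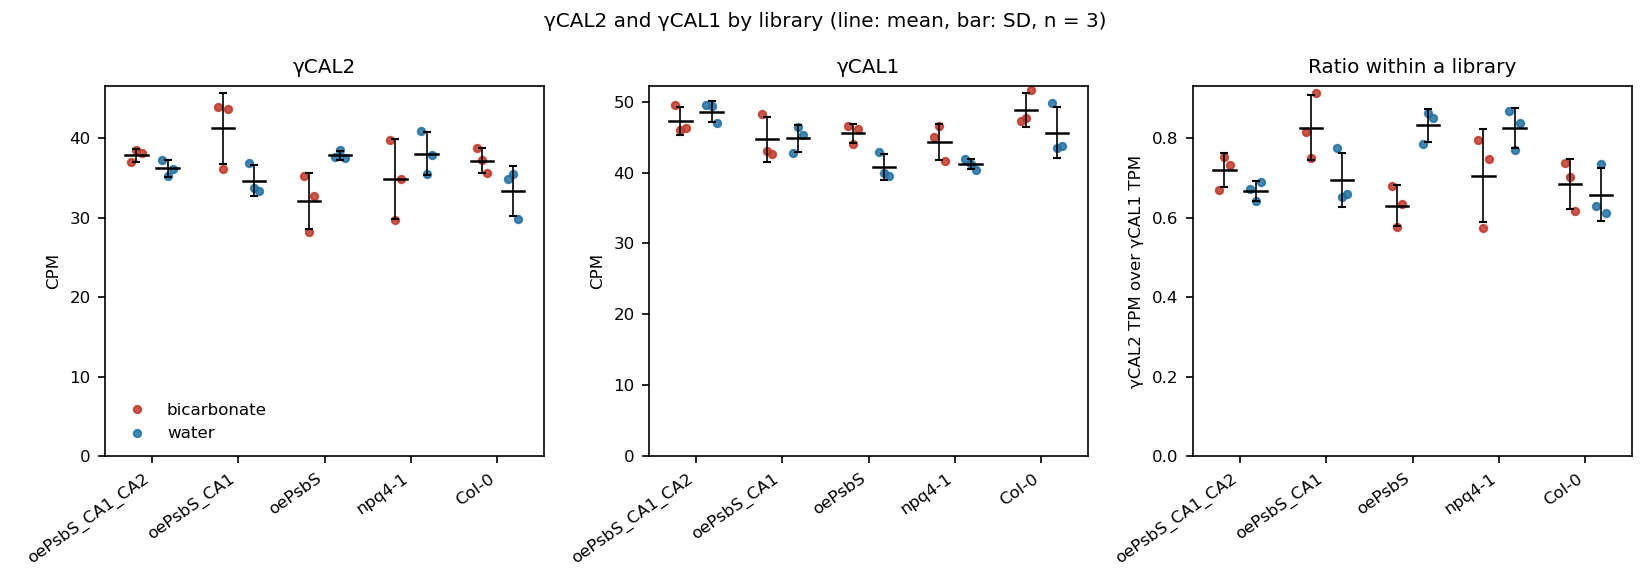
CPM of γCAL2 (left) and γCAL1 (middle) and the ratio of their TPM within a library (right), by genotype (horizontal axis) and treatment (red, bicarbonate and blue, water), with lines for the mean and bars for the SD of 3 libraries. In oePsbS the mean ratio is 0.630 with bicarbonate and 0.832 with water, and in the double line 0.827 and 0.695.

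In 14 comparisons, 0 of the 7 loci passed by edgeR or by DESeq2, and 15 of their 98 values had an unadjusted p under 0.05. The share of all loci that passed gives the background. For bicarbonate over water it was 2.01% in the triple line, 1.93% in the double line, 1.06% in npq4-1 and 0.510% in Col-0. With water it was 0.0737% for the triple line, 0.0684% for the double line, 8.56% for oePsbS and 0.705% for npq4-1 over Col-0, and 5.75% for the double line over oePsbS. With bicarbonate it was 2.09% for the triple line, 2.38% for the double line, 0.274% for oePsbS and 0.0421% for npq4-1 over Col-0, and the remaining comparison is the response of the triple line given above.

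The gamma loci of npq4-1 are part of that set. With water, γCA2 was at -0.16 (SE 0.06, adjusted p = 0.156 by edgeR) and γCAL1 at -0.15 (SE 0.07, adjusted p = 0.269 by edgeR) in npq4-1 over Col-0, and γCAL2 was at 0.19 (SE 0.09, adjusted p = 0.325 by edgeR). With bicarbonate all 5 were below Col-0, by values of -0.14 to -0.10.

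Around the gamma loci, the mitochondrial enzymes of photorespiration rose with bicarbonate in oePsbS, 5 of 5 on a list of glycine decarboxylase subunits and serine hydroxymethyltransferase. GLDP1 was at 0.52 (SE 0.07, adjusted p = 0.0015 by edgeR), GLDT at 0.42 (SE 0.06, adjusted p = 0.0019 by edgeR), GDCH at 0.41, SHM1 at 0.40 and GLDP2 at 0.32. The share of all loci that passed was 15.4%, and the leaf and floral markers that moved in the same libraries are those given for ACA1. The median of the list was 0.41, against -0.002 over all loci. Without oePsbS replicate 2 with water, 2 of 5 passed (median 0.38). In the triple line the median was -0.13, with 0 passing by edgeR or DESeq2 and 1 at an unadjusted p under 0.05 by edgeR. The response of the triple line was lower than that of oePsbS for 5 of 5, by 0.35 to 0.67. In that contrast 13.1% of all loci passed in either direction. With water, 4 of 5 passed as higher in the triple line over oePsbS (GDCH 0.66, GLDP1 0.43, SHM1 0.42 and GLDT 0.26). Of all loci, 7.76% passed as higher there. In oePsbS over Col-0 with water, 3 of 5 passed as lower, where 8.56% of all loci passed in either direction.

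The other complex I subunits showed no such rise with bicarbonate. In oePsbS, 0 of 39 passed by edgeR or DESeq2, 3 had an unadjusted p under 0.05 by edgeR and 33 were positive, with a median of 0.09. Of 6 genes of the alternative respiratory chain, which bypasses complex I and the cytochrome pathway, the NAD(P)H dehydrogenase NDA1 rose (0.47, SE 0.09, adjusted p = 0.0074 by edgeR) and NDA2 fell by 0.46 on the log2 scale (-0.46, SE 0.12, adjusted p = 0.0278 by edgeR) with bicarbonate in oePsbS. By DESeq2, 1 of the 6 passed as higher and 0 as lower. With water, the alternative oxidase AOX1A was higher in the triple line (0.55, SE 0.15, adjusted p = 0.0132 by edgeR) and in the double line (0.70, SE 0.15, adjusted p = 0.0057 by edgeR) than in oePsbS. Among the 6 β-carbonic anhydrases, 4 values were positive for bicarbonate over water in oePsbS, where 15.4% of all loci passed. BCA1, BCA2 and BCA4 passed as higher, at 0.68, 0.63 and 0.40, beside the 0.61 of ACA1, and the rest of the list did not pass. In the double line over oePsbS with bicarbonate, where 19.5% of all loci passed and the library of low βCA1 is included, 5 of the 6 alternative-chain genes passed, with AOX1D at 2.93 (SE 1.02), NDA2 at 0.80, NDB2 at 0.68, AOX1A at 0.58 and NDA1 at -0.38. BCA1 was at 1.35 there, and BCA2, BCA4 and BCA5 passed as lower, at -0.66, -0.35 and -0.30.

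Among themselves, γCA2, γCA3 and γCAL1 varied together over the libraries. Pearson's r of log2 CPM was 0.746 for γCA2 and γCA3, 0.760 for γCA2 and γCAL1 and 0.754 for γCA3 and γCAL1 over 30 libraries, and 0.962, 0.964 and 0.963 over the 10 group means. The values of a pair come from the same libraries and share their depth and scaling. γCA1 was less tightly tied to these 3, at 0.271 to 0.411. γCAL2 had r = -0.0768 with γCAL1, its closest relative in sequence, and r = -0.499 with ACA1.

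The loci with the most similar course were taken as the 3 highest Pearson correlations over the 30 libraries, given as a description. For γCAL1 they were mitochondrial malate dehydrogenase mMDH1 (0.827), mitochondrial aspartate aminotransferase ASP1 (0.826) and the ATP synthase subunit MGP1 (0.798). γCA1 was nearest to AT4G14615 (0.733), to the complex I subunit AT3G03100 (0.709) and to the glutathione transferase GSTU20 (0.697). γCA2 was nearest to the plastid phosphoglucose isomerase PGI1 (0.877), the phosphoglycerate kinase AT1G56190 (0.871) and the plastid chaperone cpHsc70-1 (0.846), and γCA3 to AT1G19140 (0.813), the tryptophan synthase TSBtype2 (0.805) and the plastid co-chaperonin CPN20 (0.804). For γCAL2 the nearest were the membrane steroid-binding protein MSBP1 (0.842), AT1G51200 (0.818) and TCTP (0.810), and none of these was among the 3 nearest of another gamma locus.

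ACA1 was nearest to AT1G60590 (0.826), to the plasmodesmal protein PDLP2 (0.809) and to BETA-OHASE 2 (0.798), a beta-carotene hydroxylase of the xanthophyll pathway. ACA2 was nearest to the arabinogalactan protein AGP19 (0.748), AT2G16800 (0.681) and OSB3 (0.676). By Spearman's rank correlation the leading partner stayed first for γCA2, γCA3 and γCAL1 and moved to rank 6 for ACA1, 7 for γCA1, 28 for ACA2 and 29.5 for γCAL2.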

How the data were processed

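Stranded mRNA libraries of rosettes were sequenced paired-end by the authors, who quantified transcripts with Salmon (version not given in the sources used here) against the Ensembl TAIR10 cDNA set of release 41. The deposited values are estimated counts and TPM per transcript, the authors' own scaling of those counts by effective length and library total, with the lengths used. For each locus the estimated counts of its transcripts were added up and rounded to whole numbers. Groups came from the labels, with 3 libraries each and 15346368 to 18326430 reads per library, and none of 435 library pairs was identical.

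Counts were tested in R 4.3.3 with edgeR 4.0.16 (TMM, filterByExpr with a minimum count of 10 and a total of 15, quasi-likelihood F test, Benjamini-Hochberg over all loci tested). Bicarbonate against water was fitted on the 6 libraries of a genotype, and the other comparisons on all 30. CPM are TMM-scaled, correlations used log2 CPM with a prior count of 2, and TPM are given with no test. RefSeq positions are on TAIR10.1, in which 47873 of 48069 matched transcripts had the deposited length.

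The text names all 7 loci, the 3 loci nearest to each by Pearson correlation, the altered genes and, from each list of related genes and in the comparisons described, any that passed with a 2-fold change and up to 4 with the smallest adjusted p, with further list genes named after their values were seen. The members and lists were chosen with earlier results of these data known. Alternatives were RLE size factors, no filter on low counts, DESeq2 1.42.0, the replicate number as a block, length-scaled TPM counts, limma 3.58.1 on log2(TPM + 1), all 30 libraries or only those of the groups compared, a call at any fold change, and each library left out. The edgeR fits were tested on simulated data with planted changes of 2-fold or more. Differences as small as those of the 7 loci were not covered.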

Additional observations from a re-analysis of the deposited data

Results flagged for a closer look

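1 result stood out because a test of the difference between groups passed. The bicarbonate response of γCAL2 was 0.25 in the double line and -0.23 in oePsbS, and the double-line response minus that of oePsbS was 0.49 on the log2 scale (adjusted p = 0.0255 by edgeR). All 3 oePsbS libraries with bicarbonate were below the 3 with water, while in the double line 2 of 3 bicarbonate libraries were above every water library. Without the double-line library of low βCA1 the difference was 0.43 (adjusted p = 0.0709 by edgeR). It passed in 12 of 19 alternatives. In the same contrast 8.06% of 18999 loci passed.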

How the results depend on the processing

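With the call that also asks for a 2-fold change, 0 of 7 loci were called in any comparison, under the edgeR fits reported and under all 295 alternatives. At an adjusted p under 0.05 at any fold change, 1 locus passed for bicarbonate in oePsbS, 4 for the triple line over oePsbS with water, 2 for the double and 1 for the triple line over oePsbS with bicarbonate, 1 for the response of the double line and 1 for the mean bicarbonate effect. Limma on log2(TPM + 1) gave 0 for the triple line over oePsbS with water, 1 and 0 for the double and triple lines over oePsbS with bicarbonate and 1 for the response of the triple line. Fitting only the libraries compared gave 2 for the triple line over oePsbS with water and 1 for the response of the triple line (ACA1, -0.53, adjusted p = 0.0203 by edgeR). The cause was not tested. With single libraries left out, the counts ran over 1 to 2 for bicarbonate in oePsbS, 2 to 4 for the triple line over oePsbS with water, 0 to 2 and 0 to 1 for the double and triple lines over oePsbS with bicarbonate and 0 to 1 for the response of either line. Over all 140 values, 10 passed under DESeq2, RLE size factors, no filter and length-scaled TPM counts alike, and 5 under limma. For the 10 values that passed in the edgeR fits reported, no alternative changed the sign. The widest shift of the median of all loci was 0.11, under limma for the response of the double line.

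The fits reported did not pair libraries by the replicate numbers of the labels. Of 51 same-number correlations, 12 exceeded 0.1, and in 0 of 17 comparisons all did. They ran from -0.142 to 0.364, and in 20 of 51 the own number correlated best. A cut at 0.1 cannot exclude pairing in part of the series. With the replicate block 12 of 140 values passed, 2 for the response of the double line and 1 for that of the triple line, where ACA1 was at -0.49 and -0.54 (adjusted p = 0.0450 and 0.0227 by edgeR). ACA2 has 50 to 124 reads per library, which limits its precision most. The order of the 7 loci by level was the same per kilobase of effective length from CPM.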
